A study of Mus musculus with 3 samples.

Results

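Small RNA inserts of 18 to 25 nt with exactly 1 exact match in the mouse nuclear genome were followed in introns, antisense to genes and between genes. Members lay outside every annotated miRNA, rRNA, snoRNA, snRNA and misc_RNA gene and outside the exons of protein-coding genes on the read strand. Overlapping inserts on a strand were summed to a locus. There were 114430 such inserts at 102176 loci, of 114364 loci formed by all inserts with a single match. By group, 26029 loci lay in an intron on the gene's own strand, 21247 were antisense to a gene, 54367 were intergenic, and 533 lay in a sense exon of a non-coding gene or pseudogene, which the rule did not remove.

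The libraries came from HL-1 cells, a mouse line of atrial heart muscle that goes on beating in culture, in 6-well plates. The cells received 9 µl of siRNA at 20 µM and were taken 48 h later. The purpose of the series was to knock down Srf, whose product, serum response factor, switches on muscle and cytoskeletal genes. Titles and siRNA entries of the samples do not match: the library labelled siSrf1 has the entry Srf si2, and the library labelled siSrf2 has the entry siNon, for an unspecific siRNA. Groups follow the titles, there was 1 library in each, and the sample titled siNon is not analysed here. Among miRNA genes typical of heart muscle, Mir499 had 70593 reads in the library labelled siSrf1 and 60928 in the library labelled siSrf2. Mir208b had 654 and 680, Mir133b 792 and 1345, and Mir208a 210 and 305. Mir1a-1, Mir133a-2 and Mir378a of this list were not measured as markers. Markers of other cells were not all low. Of the fibroblast and smooth muscle list, Mir199a-2 had 78742 and 56390 reads and Mir214 had 85 and 55, while Mir143 and Mir145 were not measured. Mir126a of endothelium had 1966 and 1515, Mir128-1 of neurons 1275 and 1410, and the 5 measured blood genes 385 and 370 in all. Mir290a, Mir292, Mir294 and Mir295 of embryonic stem cells had 0, and Mir302a had 1 read in each library. The part of other cells in the results was not tested.

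Small RNA sequencing catches any short RNA with suitable ends. Besides miRNAs, cut from hairpins by Drosha and Dicer, these are mostly pieces of longer RNAs such as rRNA, tRNA, small nucleolar RNA and mitochondrial transcripts. The genome holds many imperfect copies of those genes, so that a piece of an abundant RNA, or a copy of one with a single changed base, can match 1 place in an intron or between genes. RNA polymerase III makes tRNAs from genes with an internal B box. It ends at a run of T, and the trailer behind the tRNA is cut off as a short RNA, while the tRNA itself receives an added CCA at its 3′ end.

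The sequences behind the main patterns are given first, 5′ to 3′, with NCBIM37 coordinates. The first stretch was chosen because it holds a B box and the most abundant insert of the kind that lay behind one; capitals mark the motif GGTTCNANNC and the closing run of T, and the insert is its last 20 nt. The next 3 lines give inserts of this kind from other chromosomes, with the run of T in capitals.
chr13:22003170-22003273, plus strand: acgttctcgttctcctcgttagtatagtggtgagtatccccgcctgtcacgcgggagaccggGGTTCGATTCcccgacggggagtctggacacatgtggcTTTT
chr2:57034561-57034579, plus strand: agcagccggaattctgTTT
chr11:48647911-48647930, minus strand: aacggctaccgcctaccTTT
chr10:62892204-62892222, minus strand: aagcgggtgcttcacTTTT

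Inserts that end in CCA, in capitals, are shown because the whole insert, CCA included, matched a single place, while without CCA it matched several.
chr5:125884617-125884638, minus strand: tcgatccccggcatctccaCCA
chr12:16492122-16492139, minus strand: ctttttccaaggacaCCA
chr11:97631140-97631157, minus strand: atccgggtgccccctCCA

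The following pairs show a member beside a far more abundant insert that differs from it at 1 base, which is in capitals.
Tcf12 antisense, chr9:71811248-71811268, plus strand: actggacttggagtcagaagT
its abundant neighbour: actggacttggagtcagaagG
Wwox intron, chr8:117333297-117333314, plus strand: ttcacagtggctaagttA
its abundant neighbour: ttcacagtggctaagttC

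Inserts of different chromosomes can also overlap. Both inserts below are stretches of 1 chain of 196 nt described later, and the 15 nt they share are in capitals.
Cdk8 intron, chr5:147072757-147072775, plus strand: acgaGACCGATAGTCAACA
Intergenic, chr16:4590407-4590431, minus strand: GACCGATAGTCAACAagtaccgtaa

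The last set holds the main inserts antisense to Srf, with bases 2 to 8 (the seed of a guide strand) in capitals.
chr17:46685982-46686001, plus strand: tAAATAAGtggtgccgtccc
chr17:46685751-46685770, plus strand: aATACTCAtagcaaattgag

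Members were a small share of each library and a larger one in the library labelled siSrf2. The library labelled siSrf1 held 7748874 inserts of 18 to 25 nt, and 65439 of them were members, a share of 0.845% (exact Clopper-Pearson 95% interval 0.838% to 0.851%). In the library labelled siSrf2 they were 129770 of 7013026, or 1.85% (1.84% to 1.86%). Scaled to reads from miRNA genes, members in the library labelled siSrf2 stood 2.32-fold above those in the library labelled siSrf1. The log2 ratio (siSrf1 minus siSrf2) was -1.22, with an exact binomial 95% interval from -1.23 to -1.20. Intervals here and below cover counting error only, because the reads carry no molecular identifiers and PCR copies count as reads. The groups have no replicates, so no p-value is given.

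All 4 groups were higher in the library labelled siSrf2. Intron sense inserts had 9655 and 25545 reads, a log2 ratio of -1.63 (-1.67 to -1.60). Antisense inserts had 9300 and 23464 reads, a ratio of -1.56 (-1.60 to -1.53). Most antisense reads lay opposite introns (7270 and 18885), and fewer opposite exons (2030 and 4579). Intergenic inserts were the most read group, with 45767 and 79530 reads and a ratio of -1.03 (-1.04 to -1.01). Sense exons of non-coding genes added 717 and 1231 reads, a ratio of -1.01 (-1.14 to -0.87).

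The excess lay largely in inserts read a single time. Of the 114430 inserts, 106208 were read once over both libraries, 24676 of them in the library labelled siSrf1 and 81532 in the other, a 3.87-fold difference after scaling. At loci of at least 20 reads, which hold 41.8% of all member reads, the counts were 37912 and 43645, a ratio of -0.43 (-0.45 to -0.41). Of the 102176 member loci, 2773 (2.71%) were read in both libraries. The library labelled siSrf1 alone had 21993 and the library labelled siSrf2 alone 77410. A locus of 1 read cannot be in both, and 94.2% of member loci had 1 read. Member loci with reads numbered 24766 and 80183 in the 2 libraries. Among all 114364 single-match loci, most of which are members, the numbers were 29094 and 89221. Of 11016 loci in sense protein-coding exons, 3470 and 8022 had reads. Of 580 loci in miRNA genes, 479 and 534 had reads, so most of those were read in both libraries.

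Length set the members apart from miRNAs. At 22 nt, the usual length of a miRNA, they made up 0.123% of inserts in the library labelled siSrf1 and 0.313% in the library labelled siSrf2. At 18 nt the shares were 5.41% and 9.22%. Inserts of all kinds numbered 5223375 and 4321427 at 22 nt, against 409995 and 393434 at 18 nt. Member reads themselves fell with each step in length and had no dip at 22 nt. They were 22161 and 36285 at 18 nt, 6411 and 13535 at 22 nt, and 1583 and 3669 at 25 nt. The difference between the libraries in inserts read once was 2.53-fold at 18 nt (11550 and 24972 reads), 4.14-fold at 19 nt, 5.24-fold at 20 nt, 5.64-fold at 21 nt, 5.15-fold at 22 nt (1514 and 6660) and 7.56-fold at 25 nt (360 and 2327).

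**Figure D1:**
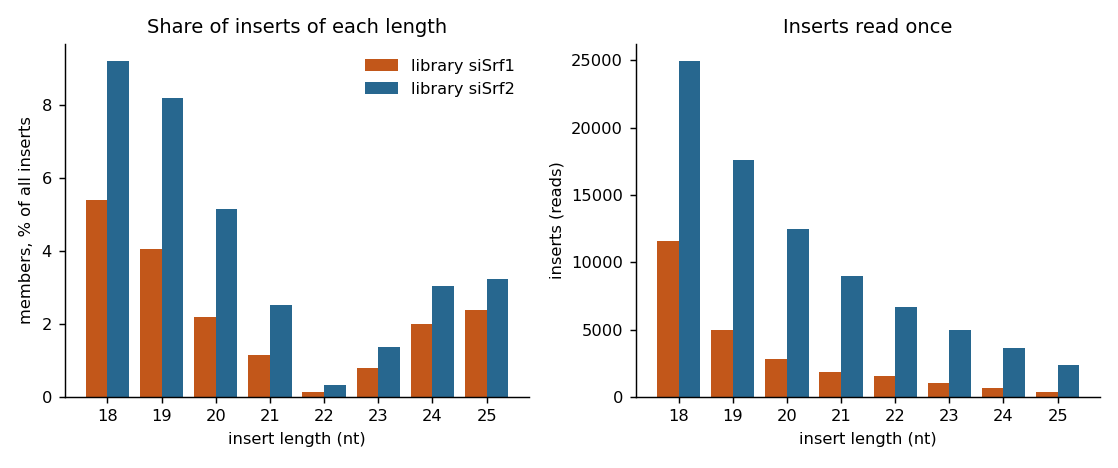
Members by insert length in the 2 libraries, as a percentage of all inserts of that length (left) and as the number of inserts read once (right). Bars for the library labelled siSrf2 are higher at every length. The share is lowest at 22 nt, at 0.123% and 0.313%, where inserts of all kinds are most numerous.

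Inserts read once followed the space open to them in rough outline, with a larger share inside genes and a smaller one between genes. A short sequence can match 1 place in a genome without coming from it. Of inserts read once, 46.8% and 30.6% were 18 nt long. How many members are such matches was not tested. Introns on the sense strand make up 19.3% of the strand positions where the annotation lets a member lie, and held 23.7% and 25.3% of inserts read once. Repeated sequence, where a single match is not possible, was not taken out of these positions. The antisense space is 19.8% and held 21.02% and 20.54%, and the intergenic space is 60.7% and held 54.5% and 53.5%. Within introns, 57.5% of inserts read once in the library labelled siSrf1 (56.5% to 58.5%) lay on the gene's own strand. In the library labelled siSrf2 the share was 59.0% (58.4% to 59.5%). Introns with a gene on the other strand counted as sense, and inserts opposite exons were left out. An even split is therefore not the share to expect, and no expected share is given. Of the 263 loci of at least 20 reads, 62.7% were intergenic, 20.5% antisense and 12.9% intron sense. Intergenic inserts gave 81.4% and 76.8% of the reads at these loci and intron sense inserts 7.90% and 8.06%.

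Few loci were deep enough to be measured one by one. Of the 102176 loci, 96199 had 1 read, 477 had at least 10 and 263 at least 20. The 10 most abundant held 19.5% of all member reads. A locus of at least 20 reads passed the size rule with a difference of 2-fold or more and an interval that lay on 1 side of 0. By this rule the library labelled siSrf2 was higher at 96 of the 263 loci, and the library labelled siSrf1 at 4. Among all 621 single-match loci of that depth, miRNA and snoRNA genes included, 36.4% were past the rule for siSrf2 and 0.805% for siSrf1, so the share of members called for siSrf2, 36.5%, was near the background. The split depends on the scale: it was 77 and 25 with TMM factors, and 50 and 111 when the libraries were scaled to the members themselves. Among the groups, 10 of 34 intron sense, 26 of 54 antisense, 54 of 165 intergenic and 6 of 10 non-coding exon loci were past the rule for siSrf2.

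What the measured loci resembled sorted them further. The kinds described below were set after values of these loci had been seen. They are a copy of an rRNA gene on chromosome 17 (18 loci), loci whose inserts chain into longer sequences (25), loci with a B box motif nearby (35), loci whose inserts also match the mitochondrial genome (53), look-alikes of abundant inserts (53), and 77 loci of none of these. One further locus each was antisense to Srf and inside a RefSeq miRNA.

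**Figure D2:**
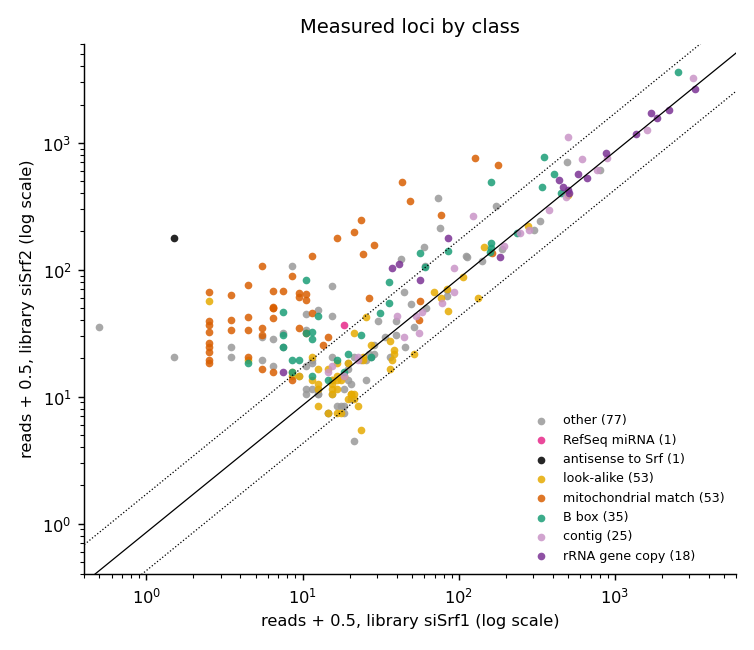
Reads at the 263 loci of at least 20 reads, with 0.5 added, in the library labelled siSrf1 (x axis, log scale) and siSrf2 (y axis, log scale), coloured by kind of locus. The solid line is an equal level after scaling to miRNA reads and dotted lines are 2-fold differences. Of the 18 loci of the rRNA gene copy, 15 were not past the size rule, and 51 of the 53 mitochondrial matches and the locus antisense to Srf (1 and 177 reads) lie above the solid line.

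The rRNA gene copy was the most read place among the members. RefSeq lists Rn18s-rs5, a pseudogene related to the RNA of the small ribosomal subunit, as the neighbour of AY036118 (RefSeq assembly GRCm38.p6, used for gene order only). The 18 measured loci on the plus strand span 5829 nt, chr17:39979943-39985771. They had 14844 and 13260 reads, a ratio of -0.07 (-0.10 to -0.03), and 34.5% of the reads of all measured loci. The opposite strand of the same span had 11 and 40 reads. The main locus, chr17:39984259-39984307, lies 740 nt from AY036118 and had 3271 and 2663 reads, with a ratio of 0.07 (-0.01 to 0.14). At chr17:39984752-39984909 there were 2211 and 1810 reads, at chr17:39984503-39984583 1704 and 1715, and at chr17:39984667-39984749 1856 and 1562. Antisense to AY036118 itself, chr17:39985047-39985178 had 880 and 836 reads.

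Reads along this copy were uneven. The 14 loci between 3472 and 5236 nt from the first locus had 14674 and 12854 reads, a ratio of -0.04 (-0.07 to -0.003), and 0 of 14 were past the size rule. The other 4 loci, outside that range, had 170 and 406 reads, a ratio of -1.48 (-1.75 to -1.22), and 3 of them were past the rule for siSrf2. The range was chosen after the profile was seen. Inserts at the rRNA copy had no fixed start: the most used 5′ end held a median of 19.5% of a locus's reads, against 97.0% at miRNA genes.

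**Figure D3:**
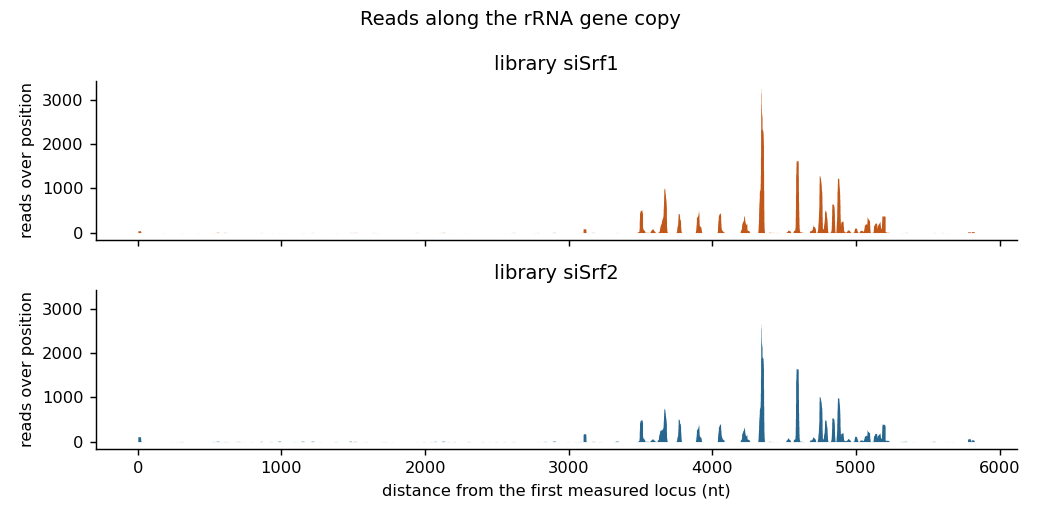
Reads over each position of the rRNA gene copy on chromosome 17 in the library labelled siSrf1 (top) and siSrf2 (bottom), by distance in nt from the first measured locus. The peaks stand at the same distances in both libraries, between 3472 and 5236 nt.

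Other loci were parts of sequences longer than their match to the genome. Inserts of any origin that overlap by at least 16 nt were chained to 58 sequences of at least 60 nt, the longest of 232 nt. The 25 loci with most of their reads in such a chain had 9859 and 9671 reads, a ratio of -0.20 (-0.24 to -0.16). Of the 24 chains with a measured locus, 9 joined loci on different chromosomes, and 13 held inserts of the rRNA gene copy. The most abundant member locus of all, chr6:3151468-3151549 on the plus strand, 170707 nt from Samd9l, was of this kind, with 3178 and 3213 reads and a ratio of -0.24 (-0.32 to -0.17). It shared its chain of 232 nt with the locus chr17:39984503-39984583 of the rRNA copy.

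A measured intron sense locus also belonged to such a chain. In an intron of Cdk8, a kinase of the Mediator complex, chr5:147072744-147072781 had 380 and 294 reads, a ratio of 0.14 (-0.08 to 0.37). This locus stood in a chain of 196 nt with loci on chromosomes 1, 2 and 16, and a pair of its inserts is printed above. Reads from the Cdk8 intron and reads from the longer sequences cannot be told apart. Another chain, of 70 nt, held chr2:72850791-72850825 with 890 and 755 reads and chr17:50559461-50559495 with 498 and 1101.

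Loci with a B box motif were more frequent among measured loci than in the genome. The motif GGTTCNANNC, searched on the read strand in the 200 nt around the main insert, was found at 38 of the 263 loci (14.4%), at 0.938% of loci of 1 read and in 0.757% of genome windows of the same length taken on both strands. A match is a description of these letters, not of a working tRNA gene. The 35 loci that were of no kind named earlier had 5482 and 8026 reads, a ratio of -0.78 (-0.83 to -0.73), and 16 were past the size rule for siSrf2.

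The main insert could lie ahead of, over or behind the motif. In 14 loci the main insert lay ahead of the motif, with 1185 and 1323 reads and a ratio of -0.39 (-0.50 to -0.27). In another 14 it lay over the motif, with 3641 and 5117 reads and a ratio of -0.72 (-0.78 to -0.66). In 7 it lay behind, with 656 and 1586 reads and a ratio of -1.50 (-1.64 to -1.37). All of these 7 main inserts began 22 or 23 nt after the first base of the motif and ended in TTT; no main insert ahead of or over the motif did. Each of the 7 was at least 2-fold higher in the library labelled siSrf2, with log2 ratios from -2.03 to -1.02. Single loci ahead of the motif ran from -3.22 to 0.05 and those over it from -2.86 to 0.20, so the ranges overlap. Of the 14 ahead, 7 were also at least 2-fold higher in the library labelled siSrf2, and the median of all 14 was -1.01, against -0.66 over the motif and -1.48 behind it. The most read were chr13:22003254-22003278 with 349 and 766 reads and chr2:57034555-57034581, in an intron of the non-coding gene 4930555B11Rik, with 160 and 492. That gene's locus had a ratio of -1.85 (-2.12 to -1.59).

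**Figure D4:**
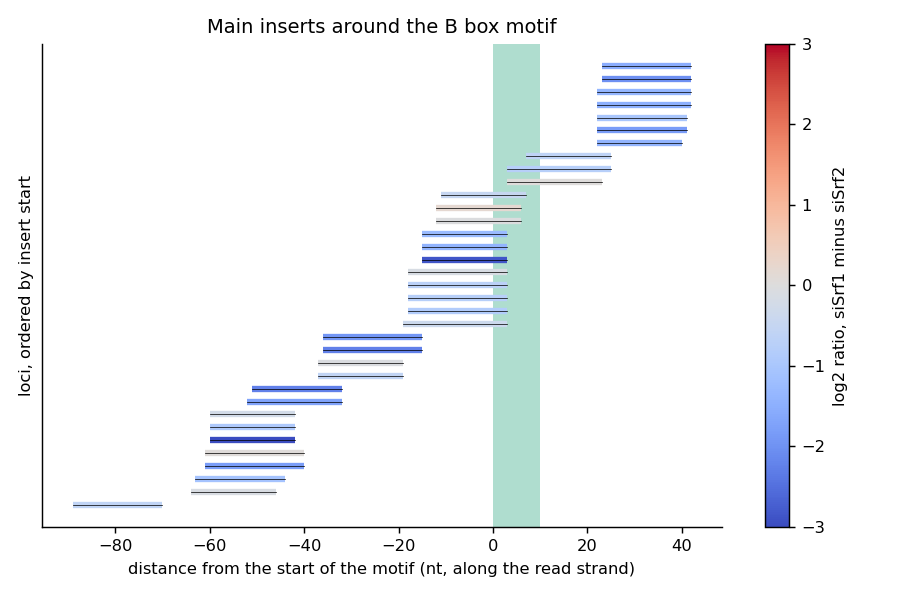
Main inserts of the 35 loci with a B box motif, drawn as bars from insert start to end by distance in nt from the start of the motif (green band) on the read strand, coloured by log2 ratio (siSrf1 minus siSrf2). The 7 bars to the right of the motif all start 22 or 23 nt after it and have ratios from -2.03 to -1.02.

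Main inserts that end in CCA were found at 19 measured loci, with 4071 and 5140 reads. Without these 3 letters, 12 of them match several places in the nuclear genome. The most abundant, chr5:125884613-125884643, is an intergenic locus 9586 nt from Dhx37 with 2525 and 3637 reads and a ratio of -0.75 (-0.83 to -0.68). Its main insert, printed above, had 705 and 2014 reads. The locus chr12:16492122-16492140 had 807 and 613 reads and chr11:97631137-97631163 had 340 and 448, and their main inserts without CCA match the nuclear genome 28 and 8 times.

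Inserts that match the mitochondrial genome as well as 1 nuclear place had the lowest ratio of the kinds with several loci. Their origin cannot be read from the sequence. The 53 loci of this kind had 1110 and 5485 reads, a 5.79-fold difference and a ratio of -2.53 (-2.63 to -2.44). Of these, 49 were past the size rule for siSrf2 and 51 had a ratio under 0. They are 53 of the 263 measured loci but 49 of the 96 called for siSrf2. With inserts that match the mitochondrial genome left out, 47 of 210 loci (22.4%) were past the rule for siSrf2.

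The densest run of them was on chromosome 1. Between chr1:24618375 and chr1:24623022, over Gm10222 and Gm10925, 18 loci on the plus strand had 190 and 1822 reads, an 11.2-fold difference, and all 18 were past the rule. On the minus strand of the same stretch, 6 loci had 30 and 375 reads. The locus chr1:24621094-24621165, antisense to Gm10925, had 43 and 491 reads, a ratio of -3.73 (-4.23 to -3.29). Nearby, chr1:24621183-24621251 had 5 and 107 reads and chr1:24621628-24621652 had 2 and 66, ratios of -4.52 (-6.30 to -3.38) and -4.96 (-8.35 to -3.36). On chromosome 13, chr13:85266923-85266949 had 3 and 63 reads.

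Mitochondrial matches inside other genes did not all differ between the libraries by the size rule. Antisense to Mei4, a gene of meiotic recombination, chr9:81949791-81949814 had 126 and 754 reads and a ratio of -2.80 (-3.09 to -2.54), and 99.8% of its reads began at 1 base. Antisense to Tbx20, a transcription factor of heart development, chr9:24549577-24549611 had 56 reads in each library, a ratio of -0.23 (-0.79 to 0.33). All reads of the Tbx20 locus also match the mitochondrial genome, so reads of either origin cannot be told apart there.

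Look-alikes were loci with most reads within 1 mismatch of a small or mitochondrial RNA, or of an insert with at least 20 times their reads. The 53 loci had 2319 and 1854 reads, a ratio of 0.09 (0.01 to 0.18). By the GENCODE annotation, 34 of the 53 resembled an abundant insert alone, 11 a miRNA, 4 a mitochondrial RNA, 3 an rRNA and 1 a misc_RNA. The 34 include look-alikes of miRNAs that this annotation lacks. The abundant inserts beside the Clstn1, Fgf13 and Zfp521 loci lie in miR-378c of RefSeq, and that beside 1700123M08Rik in miR-378b. Mir378a was not in the miRNA sequences used. Of the 4 loci past the rule for siSrf1, 3 were look-alikes. Antisense to Tcf12, which encodes a helix-loop-helix transcription factor, chr9:71811248-71811270 had 503 and 388 reads and a ratio of 0.15 (-0.05 to 0.34). Its main insert is G21T of an insert with 55029 reads, where positions are counted from 1 at the 5′ end and the abundant insert's base comes first. The first 20 nt of that abundant insert are the insert in miR-378c beside the Fgf13 locus.

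Look-alikes of miRNAs and of other inserts lay in introns, antisense to genes and between genes. The intergenic locus at chrX:105080048-105080068 is G19A of an insert with 8078 reads that lies in the hairpin of Mir1a-1, a heart and skeletal muscle miRNA. In an intron of Wwox, chr8:117333297-117333316 had 106 and 87 reads and is C18A of an insert with 1427 reads from Mir27a and Mir27b. In an intron of Smg6, chr11:74799621-74799643 is G15C of an insert with 9176 reads, for which no annotated small RNA was found. Over the length of the shorter, that abundant insert differs at 1 base from an insert with 150898 reads in the hairpin of Mir1a-1. The Smg6 insert shares this difference. The intergenic locus chr2:46728513-46728531, at 51 and 21 reads, had the largest ratio for siSrf1 among loci of at least 50 reads, 1.03 (0.29 to 1.86). It is G18T of an insert with 1173 reads, for which no annotated small RNA was found either. Antisense to Thsd7a, chr6:12341781-12341798 went the other way, with 2 and 56 reads and a ratio of -4.73 (-8.12 to -3.12). All its reads were 1 insert, which lies within 1 mismatch of a mitochondrial RNA, not of a miRNA. The insert 1 base away (A9G) had only 15 reads.

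The most uneven locus lay opposite Srf itself. The locus chr17:46685980-46686003 on the plus strand is antisense to an exon of Srf and lies in an intron of Gm16736, the gene on that strand. It had 1 read in the library labelled siSrf1 and 177 in the library labelled siSrf2, a ratio of -7.12 (-13.0 to -5.20). A second locus antisense to an Srf exon, chr17:46685750-46685770, had 15 and 0 reads; a count of 0 allows up to 3. The titles name siRNAs against Srf, but the siRNA entry of the library labelled siSrf2 is siNon. The libraries held different sequences antisense to Srf. The place of the first locus, read on the strand of Srf, had 18 reads in the library labelled siSrf1 and 1053 in the other. Those reads lie in a coding exon and are not members. The origin of the reads on either strand was not tested. Of 178 reads at the first locus, 3.93% had 21 to 23 nt and 56.7% shared 1 start.

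RefSeq holds miRNAs that the GENCODE vM1 annotation used here lacks, and 84 member loci lay in such hairpins. They had 251 and 260 reads in all, 45 had at least 2 reads and 3 at least 20. Mir378c, antisense to Samd4 at chr14:47574578-47574600, had 132 and 59 reads, a ratio of 0.93 (0.48 to 1.40). Its main insert, aCTGGACTtggagtcagaagc with bases 2 to 8 in capitals, is G21C of the insert with 55029 reads and shares its seed. The locus of let-7j, chr3:139691245-139691267, with 16 and 11 reads, was likewise 1 base from an insert of 55305 reads. Mir6960, in an intron of Troap at chr15:98911239-98911264, had 18 and 36 reads and the main insert aGGATGAGaagagtttggctgg. Its ratio was -1.21 (-2.13 to -0.37), 88.9% of its reads had 21 to 23 nt, and an insert 1 base away had 3 reads. The most used start held 42.6% of its reads, and 31.8% of the main insert was paired when folded. The Mir6960 locus did not pass the folding criteria given below.

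The other 5 named members of RefSeq hairpins had 10 to 19 reads in all. Mir7688 had 8 and 11 reads and Mir6240 had 15 and 4, the latter in a chain of longer inserts. Mir6997, in an intron of Spna2, had 8 and 5 reads with the main insert tAACAGGCtggagaggtgcaga. Mir7224 had 5 and 8 reads, and Mir6962, in an intron of Acvr1b, had 3 and 7. All 5 were under the 20 reads of the size rule. The ratio of Mir6240 was 1.56 (0.03 to 3.73), and the intervals of the other 4 included 0.

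Few members met the criteria that most miRNA genes met. Each locus was folded with its flanks, and a locus passed with a free energy of -25 kcal/mol or lower, at least 60% of the main insert paired to 1 arm and at least 80% of reads from 1 start. Of 266 loci in miRNA genes 207 passed, and of the 263 members 10 did. The median free energy was -40.6 kcal/mol at miRNA genes and -24.7 kcal/mol at members, and a median of 91.1% and 23.2% of a locus's reads had 21 to 23 nt. Among the 10 were 3 loci with a B box and 5 of no other kind. Of those 5, chr7:29158054-29158075 (15 and 74 reads, main insert tGTCAGTGctaggcgtaagc) was past the size rule, with 98.9% of its reads from 1 start. In an intron of Tnpo2, a nuclear import factor, chr8:87577536-87577559 passed with 44 and 66 reads. At the chr7 locus 1.12% of reads had 21 to 23 nt, and at the Tnpo2 locus 4.55%.

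The 77 loci of no other kind had 4279 and 5136 reads, a ratio of -0.49 (-0.55 to -0.43), and were mixed: 22 were past the rule for siSrf2, 1 for siSrf1 and 54 for neither. Antisense to Prkg1, which encodes a cGMP-dependent protein kinase of smooth muscle, chr19:31161459-31161481 had 493 and 707 reads, a ratio of -0.75 (-0.92 to -0.58), and 93.4% of its reads began at 1 base. Antisense to Il1rapl1, chrX:84483696-84483750 had 173 and 316 reads in 74 distinct inserts, a ratio of -1.10 (-1.37 to -0.83). In an intron of 2610528E23Rik, chr16:57391715-57391785 had 73 and 366 reads, a 5.84-fold difference, with 69.9% of its reads at 21 to 23 nt. An intron of Rpl3, a ribosomal protein gene, held a locus with 42 and 122 reads. It was the single one of 15 such intron loci with a pair of letters like the C and D boxes of snoRNAs (TGATGA then CTGA) around it, a pair found around 1.36% of intron loci of 1 read.

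A run of loci on chromosome 8 was chosen after its values were seen. Opposite Gm20388, between chr8:125950325 and chr8:125953115 on the minus strand, 7 measured loci had 112 and 316 reads, a ratio of -1.72 (-2.05 to -1.41), and 6 were past the rule for siSrf2. Counting loci of any depth there were 46, with 161 and 422 reads, and the other strand had 0 and 2. Antisense to Cacna2d3, also chosen after its values were seen, chr14:30256408-30256432 had 0 and 35 reads.

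**Figure D5:**
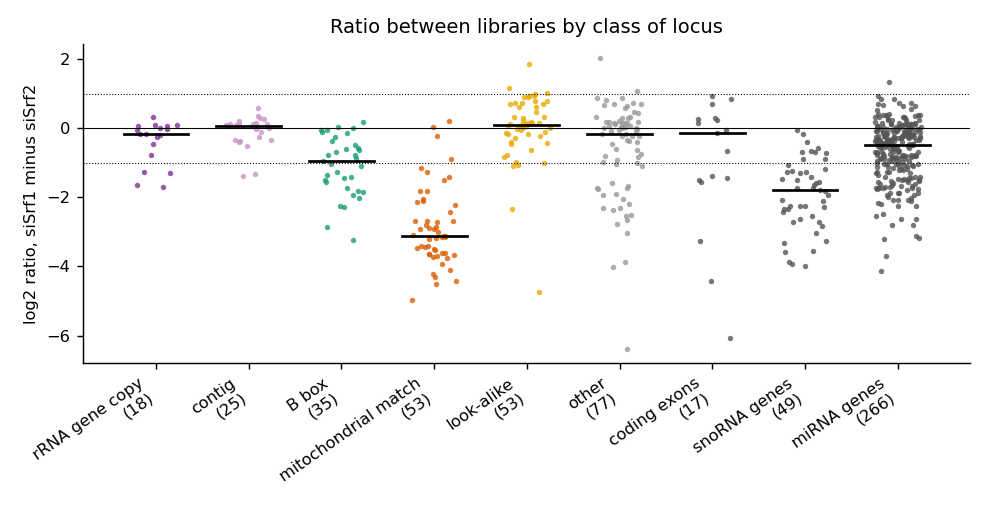
Log2 ratio (siSrf1 minus siSrf2, scaled to miRNA reads, 0.5 reads added) of each locus of at least 20 reads, by kind of member and, at the right, for other single-match loci; the number of loci is in brackets, the black bar is the median and dotted lines are 2-fold. Mitochondrial matches have a median of -3.12 and look-alikes of 0.10; the lowest point of the kind "other" is the Cacna2d3 locus, with 0 reads in the library labelled siSrf1, so its place depends on the added 0.5.

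Genes of heart muscle carried member reads at low depth. The share of all annotated genes with a member read was not counted, so the counts below do not set these genes apart. Of 30 SRF target genes, 21 had a member read; sense reads were 22 and 50 and antisense reads 26 and 219, of which Srf itself had 16 and 178. Dmd, which encodes dystrophin, had 12 and 10 sense reads. Of 22 genes of calcium handling and conduction, 20 had a member read, with 88 and 152 sense and 21 and 78 antisense reads. Ryr2, the calcium release channel, had 12 and 19 sense reads and 2 and 11 antisense. Cacna1c, a calcium channel, had 17 and 27 sense and 2 and 11 antisense. Cacna1d had 34 and 35 sense reads, of which 28 and 25 came from 1 locus, chr14:31015917-31015936.

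Sarcomere genes (19 of 23 with a member read) had 21 and 47 sense and 8 and 36 antisense reads. Cardiac transcription factors (13 of 15) had 5 and 35 sense reads and 67 and 83 antisense, of which Tbx20 gave 58 and 59, mostly the locus that also matches the mitochondrial genome. Long non-coding and imprinted genes (8 of 11 found) had 19 and 31 sense and 1 and 4 antisense reads, with Malat1, a nuclear RNA, at 12 and 19 sense and 0 antisense. Energy metabolism genes (7 of 13) had 3 and 15 sense and 2 and 7 antisense reads. Of all these genes, Srf, Tbx20 and Cacna1d held a locus of at least 20 reads.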

How the data were processed

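For each library the authors deposited a count of reads per distinct 36 nt sequence, unnormalized, with the 3′ adapter still present. The read filter, aligner and build were not given in the sources used here. Libraries held 14911499 and 14518157 reads. The first 8 nt of the adapter, or at least 4 nt at the read end, were trimmed without mismatch. Inserts of 18 to 25 nt were matched exactly to NCBIM37 and placed with GENCODE vM1 (Python 3.11.15, numpy 2.4.6, numba 0.67.0); of inserts with 1 nuclear match, those in the classes given above were kept. A sequence that lacks an exact match, or has several, is not seen, which favours imperfect copies of repeated genes. Sequencing errors were not corrected.

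Reads were scaled to miRNA reads (4816917 and 4111859 inserts inside GENCODE miRNA genes). Log2 ratios (siSrf1 minus siSrf2) use a pseudocount of 0.5 reads, and their exact binomial 95% intervals are conditional on the sum (scipy 1.17.1). Loci were folded with ViennaRNA 2.7.2, and figures drawn with matplotlib 3.10.9. Matching, chaining and the size rule were tested on simulated data.

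Members and gene lists were chosen with earlier results of these data known. Loci named are the 6 most abundant in each group, up to 5 per direction with the highest ratio, if past the size rule and of 50 reads or more, loci antisense to Srf exons, up to 4 loci of at least 20 reads per gene list, and up to 8 in RefSeq miRNAs (GRCm38.p6); any other locus was chosen after its values were seen. One locus that this rule names is not reported here. As alternatives, DESeq2 1.42.0 size factors and edgeR 4.0.16 TMM factors (R 4.3.3) were used, and other totals, insert lengths, adapter lengths, read minimums and filters on similar sequences.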

Additional observations from a re-analysis of the deposited data

How the results depend on the processing

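No paired analysis was possible because there is a single library per title. All values here are log2 ratios (siSrf1 minus siSrf2) or counts of loci, set beside -1.22 for all members, -1.63 for intron sense, -1.56 for antisense, -1.03 for intergenic, -1.01 for non-coding exons, and 96 and 4 loci past the size rule for siSrf2 and siSrf1. All members and the 4 groups kept their direction under the alternatives run for them; TMM, median-of-ratios and the members' own total were applied to loci and kinds of loci, not to the groups. Scaled to all inserts of 15 nt or longer, the ratios were -1.08 for all members, -1.50, -1.43, -0.89 and -0.87. Inserts of 20 to 25 nt gave -1.33, -1.87, -1.77 and -1.12, with 2 loci for siSrf1. Inserts of 22 to 25 nt gave -1.31, -1.85, -1.79, -1.10 and -1.55, with 34 loci for siSrf2 and 1 for siSrf1. A 12 nt adapter gave -1.24 for all members, -1.67 for intron sense and -1.05 for intergenic, with 1 locus for siSrf1.

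The overall ratio rests on sequences read once: without those seen once in a library it was -0.48, and by group -0.63, -1.01, -0.38 and -0.61. Without inserts of 1 read in all, an alternative added after the data were seen, it was -0.47, and by group -0.60, -0.94, -0.38 and -0.63. Without inserts within 1 mismatch of small or mitochondrial RNA, the ratios were -1.19 for all members, -1.49 for antisense, -0.995 for intergenic and -0.64 for non-coding exons, with 43 loci for siSrf2. Without inserts that match the mitochondrial genome they were -1.17, -1.48, -0.99 and -0.64, with 47 loci for siSrf2. Without look-alikes of inserts with 20 times their reads, also added later, they were -1.26 for all members, -1.69, -1.71 and -1.06, with 1 locus for siSrf1.

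The scale moved single loci most. Against miRNA reads, ratios shifted by 0.14 with all inserts, 0.53 with TMM, 0.52 with median-of-ratios and 1.22 with the members' own total. TMM and median-of-ratios each put 25 loci past the rule for siSrf1; the members' total put 111 there and 50 for siSrf2. Of the 12 named loci past the rule, those of Il1rapl1 and Mir6960 turned under that total, to 0.12 and 0.00736. Of the 22 named loci not past it, 9 changed sign under the members' total and 5 with TMM, the most abundant locus of all among them, at 0.29 with TMM. The rRNA gene copy turned from -0.07 to 0.07 with all inserts and 0.47 with TMM, and the chained loci from -0.20 to 0.33 with TMM. Mitochondrial matches stayed under 0 on all 5 scales, from -2.53 to -1.32. A minimum of 10 reads gave 147 and 12 loci for siSrf2 and siSrf1, and 50 reads gave 54 and 1. A pseudocount of 5 gave 2 for siSrf1, as did loci with at least 3 distinct inserts. Of 417 values of named loci under alternatives, 342 stayed on their side of the rule or within their interval. The causes of these moves were not tested beyond what each alternative leaves out. With 263 loci of at least 20 reads among 102176, depth limits single-locus statements to that few.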
